A study of Mus musculus with 12 samples.

Results

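The matrix metalloproteinases (MMPs) described here were 10 genes, *Mmp2*, *Mmp3*, *Mmp8*, *Mmp9*, *Mmp10*, *Mmp12*, *Mmp13*, *Mmp14*, *Mmp19* and *Mmp23*, taken by their gene symbols from a table of 18996 genes that listed 23 *Mmp* genes. The table held counts from bulk RNA sequencing of tissue beside the spine in 12 mice, with 4 mice in each of 3 groups. The comparisons asked how tissue at the site of spinal surgery differed from tissue without surgery, and whether opening the spinal canal added a difference. Total counts lay between 16802989 and 18077868 per mouse.

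All groups were BALB/c mice of 5 to 7 weeks with no engineered allele named for these samples. No operation mice gave paraspinal soft tissue and had no surgery. SHAM mice gave paraspinal soft and scar tissue after surgery in which the lamina, the bony roof of the spinal canal, was left in place. Laminectomy mice gave paraspinal soft and scar tissue after the laminae were excised. Tissue was taken on day 7 after surgery. The operated samples contained scar by their labels and the No operation samples did not, so an effect of surgery on a cell and a change of the tissue sampled cannot be told apart. The study states 3 mice per group, while the labels give 4 samples per group, and all 4 were analysed. How the 3 mice correspond to the 4 samples is not given in the sources used here. Its mice were of both sexes, and the labels do not give the sex of each mouse.

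MMPs are zinc-dependent proteases that cut collagens and other proteins of the extracellular matrix, and most are made as inactive proenzymes that must be cleaved before they act. Collagenases open fibrillar collagen, gelatinases cut denatured and basement membrane collagen, and stromelysins cut a broad range of matrix proteins and other proMMPs. In healing wounds they are made by fibroblasts, macrophages, neutrophils, epithelium and, where bone is remodelled, by osteoclasts and cells of the osteoblast lineage, and tissue inhibitors of metalloproteinases (TIMPs) block them.

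The labelled soft tissue was checked against marker genes of 12 cell types. The 7 skeletal muscle markers, led by *Myh4* (the marker with the highest mean CPM over all 12 mice, as for each list below), summed to 73277, 74067, 86409.7 and 103826 CPM in No operation mice 1 to 4, 1527, 4368, 6178 and 6589 CPM in SHAM mice 1 to 4 and 2176, 9881, 7898 and 7097 CPM in Laminectomy mice 1 to 4 (CPM, counts scaled to a common library size after TMM, edgeR's correction for composition). All 7 were called lower in both operated groups, and none was at 0 in any mouse. The 6 fibroblast markers, led by *Postn*, summed to 3611 to 6331 CPM in No operation mice, 6500 to 7184 CPM in SHAM mice and 5405 to 8116 CPM in Laminectomy mice. Libraries also stood apart within groups. No operation mouse 1 held 2053 CPM of *Postn*, against 99.6 to 329.7 CPM in the others of its group, and 54.2 CPM of *Timp1*, against 3.92 to 10.6 CPM. It was the highest No operation mouse for 7 of the 10 MMP genes, all but *Mmp8*, *Mmp9* and *Mmp13*, and without it 7 MMP genes were called higher in SHAM mice and 7 in Laminectomy mice, *Mmp10* counted in both. In that fit 7519 and 7126 of all 14933 genes tested were called, 3787 and 3553 of them higher. No operation mice 2 and 3 held 1429 and 516 CPM of *Ngp*, a granule gene of developing neutrophils in marrow, against 11.1 and 10.9 CPM in No operation mice 1 and 4. The same mice held 224 and 74.0 CPM of the bone matrix gene *Ibsp*, against 0.482 and 1.05 CPM in the other No operation mice. Laminectomy mice 2 and 3 held 63.1 and 23.7 CPM of the neuronal gene *Snap25*, which was at most 0.133 CPM in every other mouse. SHAM mice 1 and 3 held 27.4 and 31.9 CPM of the skin gene *Krt5*, against at most 2.03 CPM in every other mouse. The part of these other tissues in the MMP values was not tested.

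Per length (CPM per kilobase of exon annotated by GENCODE), the 10 MMP genes together summed to 318, 405, 209.7 and 92.3 in No operation mice 1 to 4. The sum was 1189, 840, 805 and 876 in SHAM mice and 1340, 996, 941 and 999.9 in Laminectomy mice. Every operated mouse lay above every No operation mouse in this sum. *Mmp2* took the largest mean share of it in No operation mice, 45.6% ± 18.9 (SD, n = 4), and in SHAM mice, 34.5% ± 5.13 (SD, n = 4). *Mmp14* came next in SHAM mice with a share of 20.0% ± 2.61 (SD, n = 4). In Laminectomy mice the shares of *Mmp2*, 25.1% ± 5.57, *Mmp9*, 24.3% ± 7.29, *Mmp14*, 18.0% ± 1.77, and *Mmp13*, 17.3% ± 4.89 (SD, n = 4 each), followed in that order, and the means of neighbours in this order differed by less than the larger of their SDs. *Mmp10* took the smallest mean share in all groups, with at most 0.228% in any mouse. The share of *Mmp13* was 21.9% in No operation mouse 2 and 0.454% in No operation mouse 4, so mice of that group differed in make-up as well as in total. With the longest transcript as the length, the mean share of *Mmp14* moved to 29.2% in SHAM mice and 26.8% in Laminectomy mice, where that of *Mmp2* was 22.3%.

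**Figure D1:**
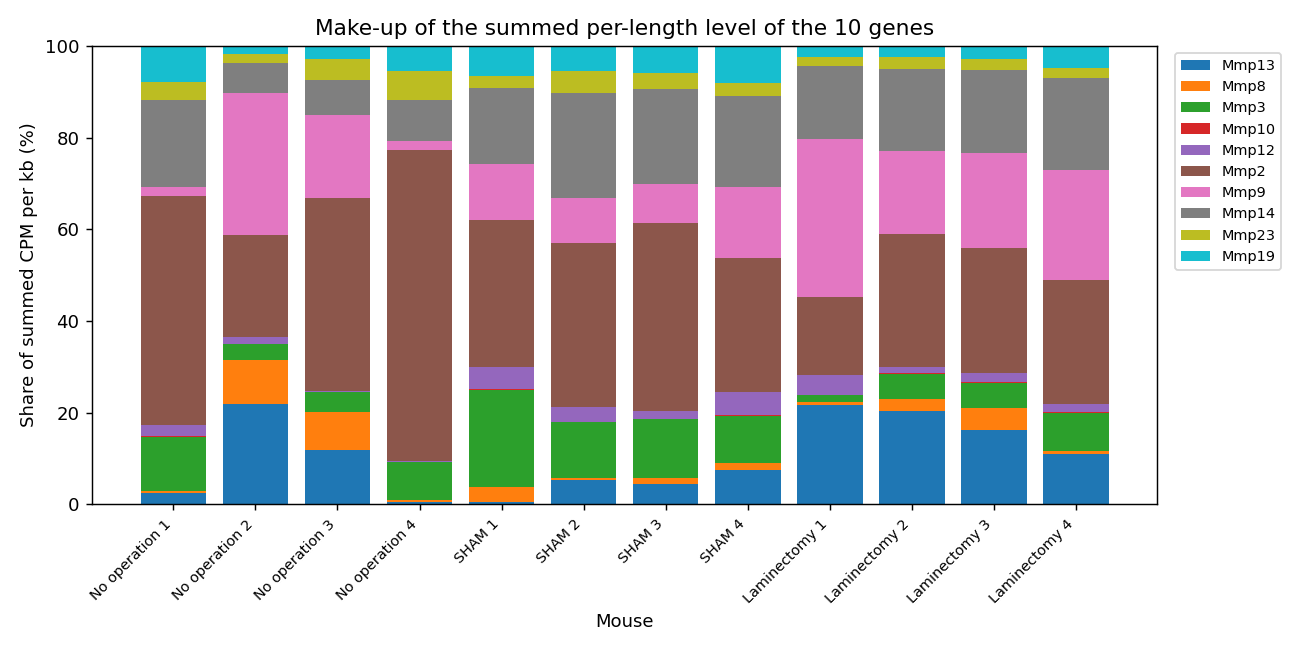
Share of each of the 10 MMP genes (%) in their summed level per exon length (CPM per kilobase), 1 bar per mouse. *Mmp2* took 45.6% on average in No operation mice, 34.5% in SHAM mice and 25.1% in Laminectomy mice.

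All 10 genes passed the filter on low counts, *Mmp10* through the operated mice alone, so it had to differ to be tested and its call is no support. A gene was called at an adjusted p below 0.05 over all 14765 genes tested with an absolute log2 fold change above 0.5. Between SHAM and No operation mice, 7 of the 10 MMP genes were called, all 7 higher in SHAM mice, where 50.8% of all genes tested were called and 25.7% were called higher. The mice of both groups did not overlap for 7 MMP genes, as for 54.5% of all genes. Between Laminectomy and No operation mice, 8 MMP genes were called, all 8 higher, where 48.6% of all genes were called and 24.2% were called higher. The mice of these groups did not overlap for 7 MMP genes, as for 56.0% of all genes. The median log2 fold change of the 10 genes was 2.13 in SHAM mice, where that of all genes was -0.002, and 2.12 in Laminectomy mice, where that of all genes was 0.0093. Without *Mmp10*, 6 and 7 of the 9 other genes were called higher, 6 and 6 did not overlap, and the medians were 1.80 and 1.61 in SHAM and Laminectomy mice. Without No operation mouse 3, 4 MMP genes were called in Laminectomy mice, and those that missed the threshold were *Mmp3*, *Mmp9*, *Mmp10* and *Mmp12*. That fit called 6787 of all 14918 genes tested in Laminectomy mice, 3298 of them higher. Scaling by library size alone moved the median of all genes to 0.25 in SHAM mice and 0.33 in Laminectomy mice and left 7 and 9 MMP genes called, all higher, while the calls over all genes split into 5179 higher and 2671 lower and into 5456 higher and 2347 lower, in place of 3799 and 3703 and of 3578 and 3605. In these bulk samples, fewer cells of a type and less RNA per cell cannot be told apart. Both comparisons share the No operation mice, so their values are given side by side and not as separate support.

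**Figure D2:**
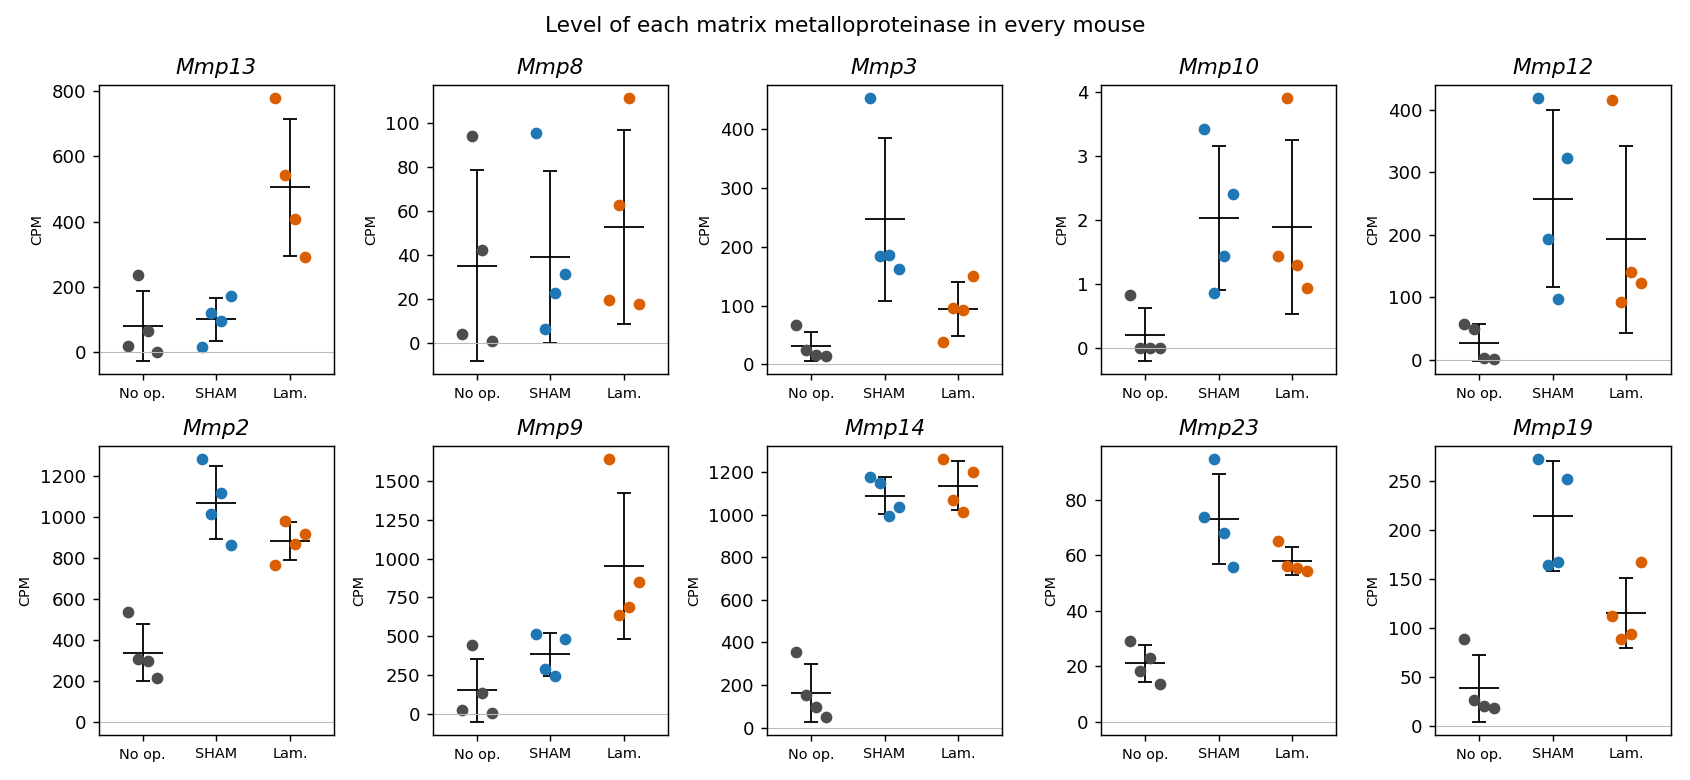
CPM of each MMP gene in every mouse (points), by group on the x axis, with the mean (wide bar) and SD (error bars) of 4 mice, on a linear CPM axis for each gene. For *Mmp14*, No operation mice lay at 48.6 to 356 CPM and operated mice at 993 to 1262 CPM.

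The membrane-anchored enzymes are described first. *Mmp14* (identifier 17387, chromosome 14, 54431598 to 54442456, plus strand of GRCm38), a membrane-bound collagenase that also activates proMMP2 at the cell surface, measured 356, 154, 94.9 and 48.6 CPM in No operation mice 1 to 4, 1177, 1147, 993 and 1037 CPM in SHAM mice 1 to 4 and 1262, 1068, 1012 and 1200 CPM in Laminectomy mice 1 to 4. Every operated mouse was above every No operation mouse, SHAM and Laminectomy mice overlapped, and No operation mouse 1 was the highest of its group. *Mmp14* was called higher in SHAM mice, with a log2 fold change of 2.74 ± 0.476 (SE; edgeR adjusted p = 0.000455), and in Laminectomy mice, with 2.80 ± 0.477 (SE; edgeR adjusted p = 0.000460). Without No operation mouse 1 these log2 fold changes were 3.46 and 3.52. Between both operated groups the log2 fold change of *Mmp14* was 0.06, with a 95% interval of -0.91 to 1.04.

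*Mmp23* (identifier 26561, chromosome 4, 155650655 to 155654539, minus strand), which encodes an MMP held in the membrane by its amino-terminal part until it is cleaved, measured 29.1, 18.1, 23.1 and 13.7 CPM in No operation mice 1 to 4, 73.8, 94.8, 68.2 and 55.6 CPM in SHAM mice 1 to 4 and 65.3, 56.2, 55.3 and 54.5 CPM in Laminectomy mice 1 to 4. Operated and No operation mice did not overlap, SHAM mouse 2 was the highest, and both operated groups overlapped each other. *Mmp23* was called higher in SHAM mice at a log2 fold change of 1.80 ± 0.220 (SE; edgeR adjusted p = 4.30e-05) and in Laminectomy mice at 1.46 ± 0.218 (SE; edgeR adjusted p = 0.000191). Its calls held in all 20 alternatives for both groups.

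The gelatinases differed from each other in how they varied among mice. *Mmp2* (identifier 17390, chromosome 8, 92827290 to 92853421, plus strand), the gelatinase made mostly by fibroblasts and other stromal cells, measured 535, 304, 298 and 211 CPM in No operation mice 1 to 4, 1282, 1015, 1115 and 863 CPM in SHAM mice 1 to 4 and 764, 980.4, 865 and 915 CPM in Laminectomy mice 1 to 4. Operated mice lay above all No operation mice, and SHAM and Laminectomy mice overlapped. The log2 fold change of *Mmp2* was 1.67 ± 0.252 (SE; edgeR adjusted p = 0.000174) in SHAM mice and 1.39 ± 0.25 (SE; edgeR adjusted p = 0.000650) in Laminectomy mice, and it was called in both groups under all 20 alternatives.

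*Mmp9* (identifier 17395, chromosome 2, 164940326 to 164955850, plus strand), the gelatinase stored in neutrophil granules and also made by macrophages and osteoclasts, measured 22.2, 444, 134 and 6.73 CPM in No operation mice 1 to 4, 516, 289.7, 240.5 and 483 CPM in SHAM mice 1 to 4 and 1643, 637, 687 and 846 CPM in Laminectomy mice 1 to 4. No operation mouse 2, with 444 CPM, lay within the SHAM range, while all Laminectomy mice lay above every mouse of both other groups and Laminectomy mouse 1 was the highest. *Mmp9* was called in Laminectomy mice, with a log2 fold change of 2.65 ± 0.966 (SE; edgeR adjusted p = 0.0329), and not in SHAM mice, with 1.33 ± 0.924 (SE; edgeR adjusted p = 0.229). That difference between the operated groups was tested directly and was not called, with a log2 fold change of 1.32 and a 95% interval of -0.70 to 3.34. Without No operation mouse 2 *Mmp9* was called in SHAM mice at 2.81 (adjusted p = 0.0151, edgeR, range over all alternatives 0.000473 to 0.374), and the value in Laminectomy mice was 4.13. The call in Laminectomy mice was lost without No operation mouse 1 (2.29, adjusted p = 0.0617), No operation mouse 3 (0.0743) or Laminectomy mouse 1 (0.0791) and with only the groups compared in the fit (0.0673), where the edgeR range over all alternatives was 0.000233 to 0.0791.

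Among the stromelysins, *Mmp3* (identifier 17392, chromosome 9, 7445822 to 7455975, plus strand), a fibroblast enzyme that cuts matrix proteins and activates other proMMPs, measured 67.6, 25.1, 16.5 and 13.9 CPM in No operation mice 1 to 4, 453, 185, 186 and 163 CPM in SHAM mice 1 to 4 and 37.2, 95.1, 92.6 and 151 CPM in Laminectomy mice 1 to 4. All SHAM mice lay above all mice of the other groups, SHAM mouse 1 was far above the rest, and Laminectomy mouse 1 lay within the No operation range. *Mmp3* was called higher in SHAM mice, at a log2 fold change of 3.00 ± 0.593 (SE; edgeR adjusted p = 0.00105), and in Laminectomy mice, at 1.61 ± 0.565 (SE; edgeR adjusted p = 0.0278). In Laminectomy mice the call was lost without No operation mouse 2 (1.52, adjusted p = 0.0630, edgeR), No operation mouse 3 (0.0753), No operation mouse 4 (0.0698) or Laminectomy mouse 4 (0.0818), where the adjusted p over all alternatives ranged over 0.00280 to 0.177. Without No operation mouse 1 its log2 fold changes were 3.74 in SHAM mice and 2.35 in Laminectomy mice.

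*Mmp10* (identifier 17384, chromosome 9, 7502342 to 7510242, plus strand), the second stromelysin, known from epithelial cells and macrophages, measured 0.827, 0, 0 and 0 CPM in No operation mice 1 to 4, 3.43, 0.856, 1.43 and 2.40 CPM in SHAM mice 1 to 4 and 1.43, 3.91, 1.29 and 0.938 CPM in Laminectomy mice 1 to 4. These were 12, 0, 0 and 0 counts in No operation mice, where a count of 0 allows up to 0.189, 0.200 and 0.210 CPM in mice 2 to 4 by counting error, and 16 to 76 counts in operated mice. All operated mice had more than No operation mouse 1, the only one of its group with counts. Since it was tested only because of its counts in operated mice, its fitted values are given as a description. *Mmp10* was called at a log2 fold change of 3.27 ± 1.04 (SE; edgeR adjusted p = 0.0168) in SHAM mice and 3.17 ± 1.04 (SE; edgeR adjusted p = 0.0202) in Laminectomy mice. Without No operation mouse 1 all mice of that group were at 0, so no fold change is given for that fit. The call in Laminectomy mice was lost without No operation mouse 3 (adjusted p = 0.0515, edgeR) or Laminectomy mouse 2 (2.54, adjusted p = 0.0611), where the range over all alternatives was 0.000956 to 0.115. The lowest of these came from the fit without No operation mouse 1, and without that fit the range began at 0.00514. *Mmp3* and *Mmp10* had fractional values that complemented each other in the same 3 mice. How many reads these related genes shared was not tested, and the counts of *Mmp10* may be uncertain by more than those fractions.

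The elastase of macrophages, *Mmp12* (identifier 17381, chromosome 9, 7344397 to 7360461, plus strand), measured 57.1, 49.0, 3.33 and 1.26 CPM in No operation mice 1 to 4, 419, 193, 97.3 and 323 CPM in SHAM mice 1 to 4 and 415, 91.9, 140.3 and 123 CPM in Laminectomy mice 1 to 4. All operated mice were above all No operation mice, with a wide spread inside each group, and No operation mice 3 and 4 were far below mice 1 and 2. *Mmp12* was called higher in SHAM mice, at a log2 fold change of 3.22 ± 1.02 (SE; edgeR adjusted p = 0.0165), and in Laminectomy mice, at 2.80 ± 1.00 (SE; edgeR adjusted p = 0.0303). The Laminectomy call was lost without No operation mouse 3 (adjusted p = 0.0610, edgeR) or Laminectomy mouse 1 (2.10, adjusted p = 0.0925) and with only the groups compared in the fit (0.0528), within a range of 0.00944 to 0.0925 over all alternatives. Without No operation mouse 1 the log2 fold changes were 3.85 and 3.43. In the GENCODE annotation, where *Mmp12* reaches further than the RefSeq positions given here, its exons overlap *Mmp1b* on the opposite strand over 157 bases, 2.2% of its exon length.

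*Mmp19* (identifier 58223, chromosome 10, 128790910 to 128800827, plus strand), an MMP of wounds and vessels that cuts basement membrane proteins, measured 89.2, 26.6, 20.4 and 18.2 CPM in No operation mice 1 to 4, 272, 164, 167 and 252 CPM in SHAM mice 1 to 4 and 112, 88.6, 94.4 and 167 CPM in Laminectomy mice 1 to 4. SHAM mice lay above all No operation mice, while Laminectomy mouse 2, with 88.6 CPM, lay just below No operation mouse 1. *Mmp19* was called at a log2 fold change of 2.47 ± 0.484 (SE; edgeR adjusted p = 0.00101) in SHAM mice and 1.58 ± 0.470 (SE; edgeR adjusted p = 0.0128) in Laminectomy mice, and without No operation mouse 1 these were 3.30 and 2.41. In GENCODE its exons overlap *Tmem198b* on the opposite strand over 789 bases, 22.3% of its exon length. Default settings of featureCounts, which the study states, do not use strand, so with them reads of both genes cannot be told apart there. The values of *Mmp19* were fractional in all 12 mice, which default settings do not produce.

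The collagenases varied widely among No operation mice. *Mmp13* (identifier 17386, chromosome 9, 7272514 to 7283333, plus strand), the collagenase of osteoblasts, cartilage and wound fibroblasts, measured 20.1, 237, 66.8 and 1.12 CPM in No operation mice 1 to 4, 15.6, 120.4, 97.0 and 174 CPM in SHAM mice 1 to 4 and 778, 544, 407 and 291 CPM in Laminectomy mice 1 to 4. All Laminectomy mice lay above all mice of both other groups, SHAM mouse 1 was the lowest operated mouse, and No operation mice spread from 1.12 to 237 CPM. The log2 fold change of *Mmp13* was 2.64 ± 1.10 (SE; edgeR adjusted p = 0.0567) in Laminectomy mice, which was not called, and 0.32 ± 1.04 (SE; edgeR adjusted p = 0.801) in SHAM mice, which was not called. In Laminectomy mice it was called without No operation mouse 2 (4.10, adjusted p = 0.00985), without SHAM mouse 1 (0.0467), with library size alone (0.0424) and with DESeq2 (0.0257), within a range of 0.00595 to 0.117 over all alternatives. In SHAM mice it was 1.79 without No operation mouse 2, and its sign turned without No operation mouse 4 (-0.10) or SHAM mouse 4 (-0.06).

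*Mmp8* (identifier 17394, chromosome 9, 7558429 to 7568486, plus strand), the neutrophil collagenase, measured 3.79, 93.8, 42.0 and 0.841 CPM in No operation mice 1 to 4, 95.5, 6.47, 22.8 and 31.2 CPM in SHAM mice 1 to 4 and 19.4, 62.6, 111 and 17.7 CPM in Laminectomy mice 1 to 4. The 3 groups overlapped throughout, and No operation mice 1 and 4 were the lowest of all 12 mice. No call was made for *Mmp8* in any comparison, with log2 fold changes of 0.15 ± 1.13 (SE; edgeR adjusted p = 0.918) in SHAM mice and 0.58 ± 1.13 (SE; edgeR adjusted p = 0.678) in Laminectomy mice. Its log2 fold changes were 1.32 and 1.76 without No operation mouse 2. Its sign turned in SHAM mice without No operation mouse 1 (-0.23), No operation mouse 4 (-0.27) or SHAM mouse 1 (-0.81), and in Laminectomy mice without Laminectomy mouse 3 (-0.08).

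*Mmp8*, *Mmp9* and *Mmp13* are set here beside markers of neutrophils, osteoclasts and osteoblasts, without a test. The 11 neutrophil markers, led by *Ngp*, summed to 90.8, 4787, 1789 and 36.5 CPM in No operation mice 1 to 4, 1169, 497, 709 and 1765 CPM in SHAM mice 1 to 4 and 711, 2519, 3831 and 861 CPM in Laminectomy mice 1 to 4, and 1 of the 11 was called higher in SHAM mice and 0 in Laminectomy mice. The mice highest in this sum within their groups, No operation mouse 2 and Laminectomy mouse 3, were also the highest of their groups for *Mmp8*, while in SHAM mice the sum was highest in mouse 4 and *Mmp8* in mouse 1. This depends on the marker, since SHAM mouse 1 was the highest SHAM mouse for *Csf3r* (294 CPM), *Cxcr2* (89.2 CPM), *Lcn2* (98.4 CPM) and *Retnlg* (35.2 CPM). It was the lowest for *Ngp* (2.02 CPM), *Ltf* (0.506 CPM), *Camp* (0.899 CPM), *Mpo* (0.0562 CPM) and *Elane* (0.0562 CPM). For *S100a8* (340.9 CPM) and *S100a9* (449.4 CPM) SHAM mouse 4 was the highest. The 6 osteoclast markers, led by *Ctsk*, summed to 171, 756, 335 and 107 CPM in No operation mice 1 to 4, 505, 759.7, 618 and 771 CPM in SHAM mice 1 to 4 and 2695, 1247, 1371 and 1594 CPM in Laminectomy mice 1 to 4, with 3 called higher and 1 lower in SHAM mice and 5 called higher in Laminectomy mice. Laminectomy mouse 1 was the highest of all mice in this sum and in *Mmp9* and *Mmp13*, but it was the lowest Laminectomy mouse in the neutrophil sum. SHAM mouse 1 went the other way for *Mmp9*, as the lowest SHAM mouse in the osteoclast sum and the highest for that gene. The 6 osteoblast and osteocyte markers, led by *Ibsp*, summed to 18.9, 536, 166 and 39.1 CPM in No operation mice 1 to 4, 2.70, 122, 42.7 and 118 CPM in SHAM mice 1 to 4 and 1797, 1728, 706 and 635 CPM in Laminectomy mice 1 to 4, with 1 called lower in SHAM mice and 0 called in Laminectomy mice, and *Bglap* was at 0 in No operation mouse 1 and SHAM mouse 1. SHAM mouse 1, lowest in this sum, was the lowest SHAM mouse for *Mmp13*, and Laminectomy mouse 4 was the lowest of its group in both. In No operation mice the sum was lowest in mouse 1 (18.9 CPM) and *Mmp13* in mouse 4 (1.12 CPM). Leaving out No operation mice 2 and 3, an alternative chosen after seeing the data, gave log2 fold changes in SHAM and Laminectomy mice of 4.07 and 4.51 for *Mmp8*, 4.73 and 6.05 for *Mmp9*, and 3.27 and 5.59 for *Mmp13*, all called. These mice were also the highest of their group for the 3 genes, so larger differences follow from leaving them out. In that fit *Mmp10* (2.28 and 2.19) and *Mmp12* (3.15 and 2.73) were not called in either operated group, and *Mmp3* (1.22) and *Mmp19* (1.12) were not called in Laminectomy mice, which left 8 MMP genes called in SHAM mice and 6 in Laminectomy mice. Of all 15240 genes tested in it, 7344 and 7175 were called, 3824 and 3683 of them higher. The part of marrow and bone cells in these values was not tested.

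**Figure D3:**
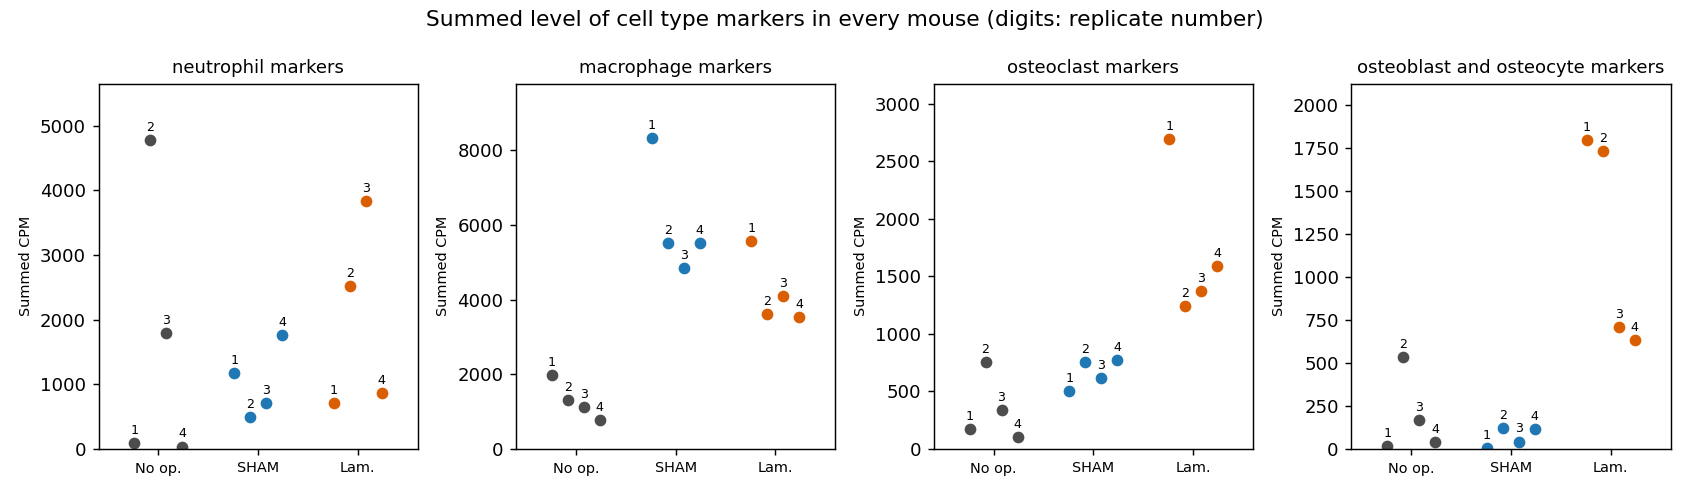
Summed CPM of marker genes of 4 cell types in every mouse, with the replicate number above each point and axes starting at 0. Neutrophil markers summed to 4787 CPM in No operation mouse 2 and 36.5 CPM in No operation mouse 4.

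The 7 macrophage markers, led by *Lyz2*, summed to 1974, 1316, 1117 and 760.3 CPM in No operation mice 1 to 4, 8322, 5508, 4854 and 5524 CPM in SHAM mice 1 to 4 and 5563, 3619.8, 4102 and 3530.1 CPM in Laminectomy mice 1 to 4. All 7 were called higher in SHAM mice and 6 in Laminectomy mice, and SHAM mouse 1, the highest in this sum, was the highest SHAM mouse for 8 of the 10 MMP genes, all but *Mmp13* and *Mmp23*. Laminectomy mouse 1, the highest Laminectomy mouse in this sum, was the highest of its group for *Mmp9*, *Mmp12*, *Mmp13*, *Mmp14* and *Mmp23* and the lowest for *Mmp2* and *Mmp3*. Of 6 cartilage markers, led by *Col2a1*, 1 of 5 tested was called higher in SHAM mice and 3 in Laminectomy mice, and *Col10a1* was at 0 in No operation mouse 1 and SHAM mouse 1. Their sum was 13.2 to 238 CPM in No operation mice, 10.3 to 114 CPM in SHAM mice and 165 to 1029.6 CPM in Laminectomy mice. Of the 5 keratinocyte markers 1 of 2 tested was called higher in SHAM mice and 0 in Laminectomy mice, and of the 4 neural and glial markers 1 of 3 tested was called higher in Laminectomy mice and 0 in SHAM mice. The keratinocyte call was *Krt5*, at 0.126 to 0.491 CPM in No operation mice, tested because of its counts in operated mice, so that call is no support. The neural and glial call was *Gfap*, at 1.38, 52.75, 18.1 and 0.261 CPM in Laminectomy mice 1 to 4 and 0.140 to 1.60 CPM in No operation mice. Laminectomy mice 1 and 4 thus lay within the No operation range of *Gfap*. Keratinocyte markers, led by *Krt10*, summed to 118 and 72.0 CPM in SHAM mice 1 and 3, and neural and glial markers, led by *Mbp*, to 739 and 202 CPM in Laminectomy mice 2 and 3. The 3 endothelial markers, led by *Pecam1*, gave 1 call lower in each operated group and summed to 470 to 594 CPM in No operation mice, 366 to 506 CPM in SHAM mice and 352 to 529.8 CPM in Laminectomy mice. Adipocyte markers, led by *Cfd*, summed to 1199.9 to 2203 CPM in No operation mice, 30.7 to 1289 CPM in SHAM mice and 4.45 to 129.6 CPM in Laminectomy mice. They gave 3 calls lower of 4 in SHAM mice and 4 of 4 in Laminectomy mice, and mast cell markers gave 0 calls of 5 in SHAM mice and 4 calls lower of 5 in Laminectomy mice. The mast cell markers, led by *Kit*, summed to 50.0 to 91.4 CPM in No operation mice, 26.0 to 74.9 CPM in SHAM mice and 16.9 to 27.3 CPM in Laminectomy mice. Fibroblast markers gave 3 calls higher and 1 lower of 6 in each operated group. The part of these cell types in the MMP values was not tested.

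Between Laminectomy and SHAM mice, edgeR called 0 of the 10 MMP genes and 0.0% of all genes. At an unadjusted p below 0.05 were 1 MMP gene and 2359 of all 14765 genes. That fit takes its spread from all 3 groups. With only the operated groups in the fit, the unadjusted edgeR p was 0.00502 for *Mmp13*, 0.00547 for *Mmp9*, 0.00625 for *Mmp19* and 0.0156 for *Mmp3*. It was above 0.05 for the other MMP genes. There 2564 of 14475 genes lay below 0.05, and 0 genes were called. DESeq2 called 601 genes there, 4.08% of those it tested, and 0 MMP genes. The mice of both groups did not overlap for 3 MMP genes, *Mmp3*, *Mmp9* and *Mmp13*, as for 10.1% of all genes. *Mmp3* was lower in every Laminectomy mouse than in every SHAM mouse, a log2 fold change of -1.39 ± 0.557 (SE; edgeR adjusted p = 0.252) with a 95% interval of -2.61 to -0.17. *Mmp13* was higher in every Laminectomy mouse, at 2.31 ± 1.09 (SE; edgeR adjusted p = 0.325) with an interval of -0.06 to 4.69. Marker lists had 0 genes called here. Median log2 fold changes were 3.37 for osteoblast and osteocyte, 3.10 for cartilage, 1.89 for osteoclast, 1.05 for neutrophil and -0.79 for macrophage markers. At an unadjusted edgeR p below 0.05 were 6 of 6, 5 of 5, 5 of 6, 0 of 11 and 5 of 7 tested, in that order, beside 2359 of all 14765 genes. The other lists also moved, with medians of -4.33 for keratinocyte (2 of 2), -2.60 for mast cell (4 of 5) and 2.37 for neural and glial markers (2 of 3). For adipocyte markers the median was -1.71 (0 of 4), for skeletal muscle 0.61 (0 of 7), for fibroblast -0.19 (4 of 6) and for endothelial markers 0.03 (0 of 3). Their part in the MMP differences was not tested. *Mmp19* had a log2 fold change of -0.89 (95% interval -1.90 to 0.12), *Mmp23* -0.34 (-0.80 to 0.13) and *Mmp2* -0.28 (-0.82 to 0.26). The widest intervals were those of *Mmp8* (0.44, -2.03 to 2.90), *Mmp12* (-0.42, -2.46 to 1.62) and *Mmp13*, and those of *Mmp8* and *Mmp12* allow differences of several fold in either direction. The interval of *Mmp10* was -1.94 to 1.74. The log2 fold change of *Mmp12* was -1.12 without Laminectomy mouse 1 and -0.08 without SHAM mouse 1, and that of *Mmp10* was -0.73 without Laminectomy mouse 2. The sign turned for *Mmp8* without Laminectomy mouse 3 (-0.23) and for *Mmp10*, at -0.10, without SHAM mouse 1 (0.29) or Laminectomy mice 1, 3 or 4 (0.01, 0.05 and 0.12).

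**Figure D4:**
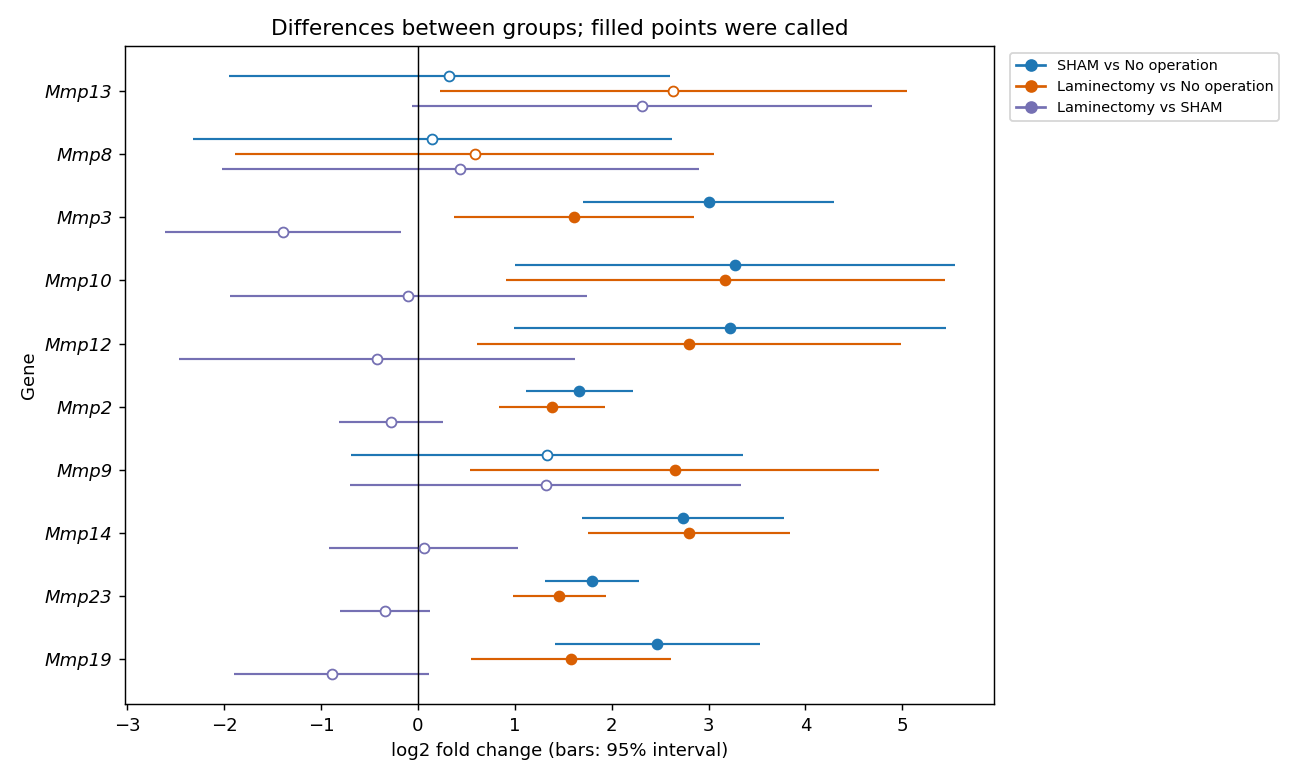
Log2 fold change of each MMP gene in the 3 comparisons, with 95% intervals from edgeR's quasi-likelihood fit, where filled points were called and open points were not. The intervals between Laminectomy and SHAM mice include 0 for 9 genes and lie below 0 for *Mmp3*.

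Log2 fold changes are given next first for SHAM and then for Laminectomy mice, each against No operation mice and by the same fit. The count of each list below stands beside that of all 14765 genes tested. Of these 3799 were called higher and 3703 lower in SHAM mice and 3578 higher and 3605 lower in Laminectomy mice (medians -0.002 and 0.0093). Of the 13 other *Mmp* genes, 8 were tested, and 3 were called higher and 1 lower in each operated group, with median log2 fold changes of 0.08 and 0.73. *Mmp11* was called higher (1.40 and 1.04), *Mmp28* was called lower (-1.60 and -1.75), and *Mmp16* was at 0.19 and 1.66, called in Laminectomy mice. *Mmp15*, the highest of them in mean CPM over all 12 mice but below *Mmp11* in both operated groups, was at -0.23 and 0.02 and not called. The MMP inhibitors gave 1 call higher and 3 lower of 6 in each group (medians -0.55 and -0.75). *Timp1*, a secreted inhibitor, was called higher (3.18 and 2.89). *Timp3*, which binds to the matrix, was called lower (-2.18 and -2.28), as was *Timp4* (-4.35 and -4.49). *Reck*, an inhibitor anchored in the membrane, was called lower as well (-1.15 and -1.45). *Timp2*, which takes part in the activation of proMMP2 by MMP14, had log2 fold changes of 0.05 and -0.04 and was not called.

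Of the 9 tested activators of proMMPs, 4 were called higher and 1 lower in SHAM mice and 4 higher and 3 lower in Laminectomy mice (medians -0.25 and 0.16). *Furin*, which cleaves proMMP14 inside the cell, was at 1.17 and 0.92, *Plaur*, the urokinase receptor, at 2.18 and 1.85 and *Plat* at 1.39 and 0.79, all called. *Plau*, the gene of urokinase, was called higher (0.71 and 0.66), and *Pcsk6*, a proprotein convertase gene among the 3 highest of the list in mean CPM over all 12 mice, was called lower in both groups (-2.17 and -1.82). The mast cell protease genes *Cma1* (-0.31 and -3.15) and *Tpsb2* (-0.25 and -3.41), also counted among the mast cell markers, were called lower in Laminectomy mice and not called in SHAM mice, and their differences between the operated groups were not called. Of 11 tested inducers of MMP genes, 8 were called higher and 1 lower in SHAM mice and 7 higher and 2 lower in Laminectomy mice (medians 2.97 and 2.33). The cytokine genes *Il1b* (5.17 and 3.77), *Tgfb1* (1.58 and 1.36) and *Tnfsf11* (3.10 and 3.49) were called higher in both groups. *Fgf2* was called lower in both (-1.47 and -2.12). *Il6* was called higher in both as well (5.69 and 5.41). Without surgery no mouse exceeded 0.620 CPM of *Il6*, so it passed the filter on low counts through the operated mice. Its calls are therefore no support, though the counts and medians of the inducers include it, and its fold changes are given as a description. *Bsg*, an inducer at the cell surface and the highest of them in mean CPM, was called lower in Laminectomy mice (-0.37 and -0.56). Among 12 transcription factors, 11 of the AP-1, ETS and RUNX families and the C/EBP factor *Cebpb*, 5 were called higher and 1 lower in SHAM mice and 6 higher and 1 lower in Laminectomy mice (medians 0.78 and 1.00). *Fosl2* (1.43 and 1.46) and *Fos* (2.22 and 1.99) were called higher in both groups, as was *Fosl1* (4.33 and 2.46). For *Fosl1*, No operation mouse 1 held 1.79 CPM and the others of its group at most 0.133 CPM. *Fosl1* thus passed the filter on low counts through the operated mice. Its calls are no support either, though the counts and medians of the transcription factors include it, and its fold changes are given as a description. *Runx2* (0.93 and 1.88) and *Ets1* (0.43 and 0.55) were called higher in Laminectomy mice, *Cebpb* (0.63 and -0.35) was called higher in SHAM mice, and *Jun* (0.33 and -0.10) was not called.

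Of 13 MMP substrates, 10 were called higher and 1 lower in SHAM mice and 8 higher and 1 lower in Laminectomy mice (medians 1.26 and 1.83). The fibrillar collagen genes *Col1a1* (1.81 and 1.91), *Col1a2* (1.26 and 1.35), *Col3a1* (2.84 and 2.17) and *Col5a1* (2.39 and 2.52) were called higher, and the basement membrane gene *Lama2* was called lower (-0.99 and -1.36). Of the basement membrane collagen genes, *Col4a1* (0.72 and 0.64) was called higher in both groups and *Col4a2* (0.56 and 0.40) in SHAM mice. *Acan*, a cartilage proteoglycan gene also counted among the cartilage markers, was called in Laminectomy mice (0.08 and 3.17). Of 7 genes of clearance and docking, 6 receptors and the secreted *Thbs2*, 4 were called higher and 0 lower in SHAM mice and 3 higher and 1 lower in Laminectomy mice (medians 0.75 and 1.02). *Cd44*, which holds MMPs at the cell surface, was at 1.90 and 1.65 and called in both groups. *Lrp1*, which takes up MMPs bound to inhibitors, was at 0.98 and 0.43 and called in SHAM mice. *Mrc2* (1.13 and 1.02), the gene of a receptor that takes up collagen, and *Itgav* (0.75 and 1.17) were called higher in both groups, and *Ddr2*, a collagen receptor gene, was called lower in Laminectomy mice (-0.18 and -0.55). *Thbs2*, which binds MMP2 and is cleared through LRP1, was at 0.67 and 0.71 and not called. Between Laminectomy and SHAM mice, edgeR called 0 genes of these 7 lists. At an unadjusted edgeR p below 0.05 were 14 of the 66 tested entries, beside 2359 of all 14765 genes.

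Genes whose pattern across the 12 mice was most like each MMP gene were ranked by the Pearson correlation of log2 CPM among 10627 genes, a description in which the points share the 3 groups and the libraries. For *Mmp14* they were *Arl4c* (0.995), *Runx1* (0.993) and *Nt5dc2* (0.993), for *Mmp2* *Galc* (0.987), *Tbc1d2b* (0.986) and *Rap2a* (0.985) and for *Mmp23* *Tmed3* (0.991), *Tsku* (0.990) and *Fzd2* (0.984). *Mmp3* was most like *Npl* (0.982), *Ccl8* (0.982) and *Cpxm1* (0.976), and *Mmp19* was most like *Socs3* (0.986), *Nxpe5* (0.981) and *Ccl2* (0.979). *Mmp12* was most like *Pira2* (0.971), *Asxl1* (0.970) and *F7* (0.970), and *Mmp10* was most like *Hhipl1* (0.951), *Necap1* (0.949) and *Rab3gap2* (0.944). *Mmp9* was most like *Runx2* (0.974), *Clec12a* (0.973) and *Depdc1a* (0.967), and *Mmp13* was most like *Itgb3* (0.969), *E2f8* (0.960) and *Cdc25b* (0.941). *Mmp8* was most like *Retnlg* (0.973), *Lcn2* (0.962) and *Slc2a3* (0.961), of which *Retnlg* and *Lcn2* are also on the neutrophil list.

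*Mmp13*, *Mmp12*, *Mmp3*, *Mmp10* and *Mmp8* lie in this order within chromosome 9, 7272514 to 7568486, in a cluster of 10 *Mmp* genes, while the other 5 lie on chromosomes 2, 4, 8, 10 and 14. RefSeq promoter sequences of GRCm38.p6 (250 bases before to 50 after the start) were given for 7 of the 10 genes in 9 windows, and *Mmp2*, *Mmp9* and *Mmp19* had no entry. They come from the C57BL/6J reference and the mice were BALB/c. The AP-1 letters TGANTCA (N is any base, and the letters read alike on both strands) were found in 7.81% of all 32851 promoter windows and in those of 4 of the 7 genes, all in the cluster. The letters TATAAA on either strand were found in 13.6% of all windows and in those of 5 of the 7 genes. The 80 bases before the start are shown for the 4 genes with the AP-1 letters, because genes of AP-1 are among the factors described above, and capitals mark the letters of either set that fall in them. The TATAAA letters of *Mmp12* lie after its start, outside the stretch.
*Mmp13*, chr9:7272434-7272513: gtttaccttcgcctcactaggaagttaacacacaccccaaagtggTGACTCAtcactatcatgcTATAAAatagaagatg
*Mmp12*, chr9:7347294-7347373: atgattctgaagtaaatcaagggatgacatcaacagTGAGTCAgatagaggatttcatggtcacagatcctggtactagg
*Mmp3*, chr9:7445742-7445821: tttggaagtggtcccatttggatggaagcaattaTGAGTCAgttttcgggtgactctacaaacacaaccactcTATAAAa
*Mmp10*, chr9:7502262-7502341: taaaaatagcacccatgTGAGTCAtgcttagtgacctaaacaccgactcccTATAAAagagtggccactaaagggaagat
All 4 stretches are on the plus strand, upstream of an annotated start, and that of *Mmp12* belongs to the second of its starts, since the window of its other start held neither set of letters. The windows of *Mmp8*, *Mmp14* and *Mmp23* did not hold the AP-1 letters. A match describes letters in the reference, and nothing was measured here about binding.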

How the data were processed

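RNA was measured in paraspinal tissue of 12 mice, 4 per group, with libraries of polyadenylated RNA that keep strand. The authors aligned the reads with STAR 2.6.1b to GRCm38 and counted them per gene with featureCounts 2.0.1, and the estimated counts they deposited were not normalised. Of these values 10.22% were not whole, a step not given in the sources used here, and they were rounded. Groups and mouse numbers came from the sample labels, gene positions from RefSeq and exons from GENCODE, both on GRCm38. With R 4.3.3, genes were filtered with edgeR 4.0.16 (filterByExpr, 14765 of 18996 kept), scaled by TMM and tested with its quasi-likelihood test in 1 fit of all 12 mice, with Benjamini-Hochberg adjustment over all genes tested. Standard errors are the absolute log2 fold change divided by the square root of that test's F value. Intervals are 95%, follow from these errors and the t distribution, and are not adjusted over genes. Log2 CPM used a prior count of 2, and the upper limit at a count of 0 is 3 counts and covers counting error only. Alternatives were DESeq2 1.42.0, other scalings and filters, only the groups compared, the mouse number as a block, each mouse left out and, chosen after seeing the data, No operation mice 2 and 3 left out. Beyond the 10 MMP genes, the genes named from each pathway list were its 3 most abundant by mean CPM and, of its called genes with at least 10 CPM, those with the 2 largest and 2 smallest fold changes, and the 3 genes most like each MMP gene by Pearson correlation were named too. Of the marker lists only the most abundant gene, genes at 0 in some mice and markers of libraries or mice that stood apart are named, fewer than that rule gives, and the last were chosen after their values were seen. Members and lists were chosen with earlier results of these data known. Counts of the 18 pairs of mice within groups differed by more than sampling noise. The labels number the samples of a group without saying that each came from its own animal. Samples are called mice here, and p-values measure the spread between them, which may be partly technical.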

Additional observations from a re-analysis of the deposited data

Results flagged for a closer look

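In 30 groups of 4 mice, 10 MMP genes in 3 groups, 2 mice lay far from the rest of their group by Dixon's rule at 95% on log2 CPM, which chance alone does in about 1 of 20 groups. *Mmp3* was at 453 CPM in SHAM mouse 1, far above the other SHAM mice. *Mmp10* was at 0.827 CPM in No operation mouse 1, and the other No operation mice had no counts. On CPM without the log, 6 values lay that far, both of these and *Mmp19* in No operation mouse 1 (89.2 CPM), *Mmp10* in Laminectomy mouse 2 (3.91 CPM) and *Mmp12* (415 CPM) and *Mmp23* (65.3 CPM) in Laminectomy mouse 1.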

How the results depend on the processing

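Of 597 refits of a member's log2 fold change, 554 kept direction and side of the threshold, 11 gained a call, 20 lost one and 12 changed sign. The sign changes, all of values that were not called, were those of *Mmp8* between Laminectomy and SHAM mice with the mouse number as a block (-0.374) and, with 1 mouse left out, of *Mmp8*, *Mmp13* and *Mmp10*. With 1 mouse left out at a time, *Mmp8* ranged from -0.811 to 1.322 (SHAM against No operation), -0.079 to 1.758 (Laminectomy against No operation) and -0.229 to 1.393 (Laminectomy against SHAM), *Mmp13* from -0.104 to 1.791 (SHAM against No operation) and *Mmp10* from -0.728 to 0.286 (Laminectomy against SHAM). Likewise the genes called ranged from 6966 to 7642 in SHAM mice, 6534 to 7416 in Laminectomy mice and 0 to 0 between both, and the MMP genes called from 7 to 8 and from 4 to 9. A log2 fold change above 1 left 4589 and 4323 genes, and DESeq2 called 601 between the operated groups. As a block, the mouse number gave 7442, 7153 and 0 genes and 7, 8 and 0 MMP genes, with *Mmp9* lost (adjusted p = 0.05003, edgeR) and *Mmp13* gained (adjusted p = 0.04667, edgeR) in Laminectomy mice. Mice of the same number were not paired by the labels, and their deviations from the group means correlated at -0.228 to 0.195, 0.069 to 0.352 and -0.131 to 0.333 in the 3 pairs of groups, best with their own number for 1, 2 and 1 of 4 mice. A minimum of 10 counts in every mouse removed *Mmp10*, so it has no value there. At this depth *Mmp10* had 0 counts in 3 No operation mice. The cause was not tested for any of these changes.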
